A study of Mus musculus with 9 samples.

Results

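Liver of ob/ob mice given an extract of Vigna umbellata was compared with liver of wild-type mice given vehicle, using 6 of the 9 arrays of the series. The extract group held 3 male C57BL/6JHamSlc-ob/ob mice given 100 mg/kg VE, the labels' name for the extract, by oral gavage. The wild-type group held 3 male C57BL/6JHamSlc-+/+ mice given vehicle, and 3 male C57BL/6JHamSlc-ob/ob mice given vehicle served as the reference for what the ob/ob genotype did without extract. Treatment lasted 42 days, every mouse was 6 weeks old at purchase, and all were fed standard chow. No wild-type group given extract was analysed here, so genotype and extract, which both separate the groups compared, cannot be told apart from this comparison alone. Whole-liver RNA was read on Clariom S mouse arrays as log2 expression values for 22206 transcript clusters, of which 19572 carried 1 gene symbol each. Each array was taken as 1 mouse, and the p-values measure only the spread between these arrays. A difference of 1 on this scale is a doubling.

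The ob/ob mouse lacks working leptin, the fat-cell hormone that restrains appetite; these mice grow obese and store fat in the liver. Mouse liver differs strongly between the sexes: pulses of growth hormone in males keep one set of hepatocyte genes high and another set low, and the steadier female pattern does the reverse. A liver loaded with lipid commonly also changes genes of fatty acid uptake and oxidation, which fatty-acid-sensing nuclear receptors control, and genes of drug metabolism, which xenobiotic-sensing nuclear receptors control.

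Before the groups were compared, the arrays themselves were examined. Medians lay between 5.07 and 5.36 log2, and arrays within the extract group correlated at 0.982 to 0.987. Array 3 of the wild-type group and array 3 of the ob/ob vehicle group stood apart. Their correlations with arrays of their own groups were as low as 0.955 and 0.948, and their interquartile ranges were the narrowest of the 9 arrays. Wild-type array 2 carried skeletal muscle transcripts. The muscle myosin Myh2 was at 13.04 log2 on it, against 4.25 and 4.41 on the other wild-type arrays and 3.73 to 4.13 in the extract group. Skeletal actin Acta1 was at 12.04 there and Myh4 at 10.83, and 8 of 11 muscle markers exceeded 8 log2 on that array while 0 did on any other. None of the 11 was called changed, and 0 had an unadjusted p under 0.05 in limma's test. Their mean level was 4.45 to 9.29 log2 in wild type and 4.40 to 4.70 with extract, and their median difference was −1.65. What this did to the comparison was tested only by leaving that array out, which is given with the counts. The 14 measured hepatocyte markers fitted the tissue label, with a mean level of 16.89 to 17.31 log2 in wild type and 16.92 to 17.05 with extract, and 0 of them were called by limma, 2 having an unadjusted p under 0.05. Lep, which carries the ob mutation, ranked at 0.666% to 13.3% of the clusters of an array, from the bottom, and is not normally expressed in liver, so it does not check the genotype.

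Treated ob/ob liver remained far from wild type. Of the 22206 clusters, 287 (1.29%) differed at a Benjamini-Hochberg adjusted p under 0.05 in limma's moderated test, which is the meaning of "called" throughout. In extract-treated liver 217 clusters (0.977%) were higher and 70 (0.315%) were lower. In all 287 the 3 extract values and the 3 wild-type values did not overlap, against 21.7% of all clusters. That separation largely follows from the call, which was made on these same values. The median difference was 2.09 log2 among the clusters called higher and 2.69 log2 in size among those called lower, while the median over all clusters was −0.05. Differences of at least 4 log2 were found in 34 of the clusters called higher and 14 of those called lower. The study's design text asks for a linear fold above 1.1 and a p, not adjusted, below 0.05; 3115 clusters (14.0%) met this. By that p alone 8.21% of all clusters were higher and 5.82% lower. The split between directions depended on scaling: 75.6% of calls were higher with the deposited values, 61.2% after quantile normalization and 54.6% with each array's interquartile range as a covariate.

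How many clusters were called depended on single arrays. Leaving out wild-type array 2, the one with muscle transcripts, left 97 calls, and leaving out wild-type array 3 left 153. Without wild-type array 1 the count rose to 418. Without extract array 1, 2 or 3 the counts were 105, 77 and 173. Without ob/ob vehicle array 1, 2 or 3, which enter only through the shared estimate of spread, the counts were 209, 199 and 598. Across the 9 fits that each left out 1 array, 69 of the 287 clusters were called every time, 43 higher and 26 lower, and 59 of these 69 had a gene symbol. These are called core genes below. For most called genes described outside the core, the arrays whose absence ended the call are named with the resulting adjusted p.

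**Figure D1:**
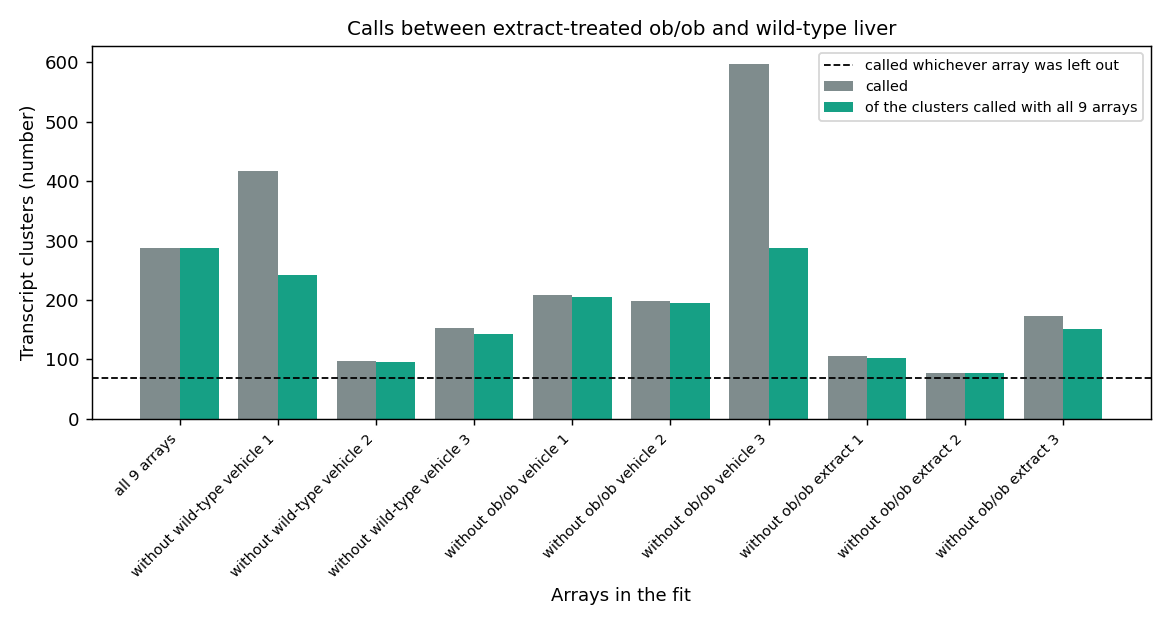
Number of transcript clusters called between extract-treated ob/ob and wild-type liver (vertical axis) in the fit of all 9 arrays and in each fit that left out 1 array (horizontal axis). Grey bars are all clusters called, green bars are those among the 287 called with all arrays, and the dashed line marks the 69 called whichever array was left out; the grey bars run from 77 to 598.

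Among the 27 pathway lists, the sex-biased genes of liver held the most calls. Of 27 measured genes with higher expression in male liver, 14 were called lower in treated ob/ob mice and 0 higher, with a median difference of −2.83 over the list. Of 29 measured genes with higher expression in female liver, 13 were called higher and 0 lower, with a median of 1.99. The male mice of the extract group thus had lower levels of many male-biased genes and higher levels of many female-biased genes than wild-type males. The male-biased count was 7 without extract array 2 and 9 without wild-type array 2, and the female-biased count stayed between 9 and 16 whichever array was left out. In ob/ob vehicle against the same wild-type arrays, the counts were 17 lower and 14 higher, among 658 clusters called there (2.96% of all clusters, 2.28% higher and 0.680% lower).

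Slco1a1, an uptake transporter of the hepatocyte's blood-facing membrane for bile acids and steroid conjugates, had the largest fall. Its values were 16.15, 15.66 and 16.21 log2 in wild type and 4.75, 4.96 and 4.26 with extract, a difference of −11.35 (SE 0.39, adjusted p = 2.84e-07). The groups were far apart, and in ob/ob vehicle mice the gene was as low, at 4.46, 4.34 and 5.77. Hsd3b5, a hydroxysteroid dehydrogenase of male liver, was at 15.08, 14.72 and 13.82 in wild type and 5.31, 5.05 and 5.0 with extract (difference −9.42, SE 0.33, adjusted p = 2.84e-07). For both genes all 3 extract values lay under the upper end of the range of 1080 olfactory receptor genes on the same array. Liver is not known to express those receptors, and the range holds their middle 95%. Where all values of a group lie under that end, it is "not shown above background" and the size of the difference is not settled. This held for the lower group in 34 of the 217 clusters called higher and 14 of the 70 called lower.

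Cyp7b1, an oxysterol 7-alpha-hydroxylase of the alternative bile acid pathway, stood at 14.16, 14.62 and 13.39 in wild type and 7.79, 7.94 and 8.71 with extract (difference −5.91, SE 0.39, adjusted p = 5.95e-05). The protease inhibitor gene Serpina1e was at 19.33, 19.57 and 17.36 in wild type and 12.63, 13.59 and 14.17 with extract (difference −5.29, SE 0.59, adjusted p = 0.00234). Both were core genes with clear gaps between the groups. The other male-biased core genes were C6 and C8a, described with complement, and Selenbp2, a selenium-binding protein gene (difference −2.83, adjusted p = 0.00463). Mup6, a major urinary protein gene outside the lists, was also in the core (difference −3.11, adjusted p = 0.00173). Outside the core, Egfr, the epidermal growth factor receptor, was at 12.44, 12.90 and 10.88 in wild type and 5.61, 6.15 and 8.57 with extract (difference −5.30, adjusted p = 0.00637). Egfr lost its call only without extract array 2 (adjusted p = 0.0506). Elovl3, an elongase of very long chain fatty acids, was at 15.21, 13.71 and 15.11 in wild type and 8.47, 10.59 and 11.36 with extract (difference −4.54, adjusted p = 0.0143). It lost its call without extract array 2 (adjusted p = 0.0671) or wild-type array 3 (adjusted p = 0.0554).

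On the female-biased side Cyp2b9, a cytochrome P450 of female liver, showed the largest difference of any named gene. Its values were 5.65, 5.62 and 4.10 in wild type and 17.53, 17.47 and 16.63 with extract, a difference of 12.09 (SE 0.58, adjusted p = 4.36e-06). Wild-type values of Cyp2b9 were under the upper end of the olfactory range on 2 of 3 arrays. The estrogen sulfotransferase Sult1e1 was at 3.71, 3.36 and 3.61 in wild type and 13.67, 14.15 and 15.14 with extract (difference 10.76, SE 0.96, adjusted p = 6.02e-04). The bile acid and steroid sulfotransferase Sult2a2 was at 3.59, 5.87 and 3.98 in wild type and 11.26, 11.77 and 9.05 with extract (difference 6.21, SE 0.74, adjusted p = 0.00307). All 3 genes belonged to the core, as did Cyp2a4, Slc22a27, Cyp2b13, Cyp2b10, Acot3 and Cd36 of the same list. Wild-type Sult1e1 was not shown above background on any array. Hao2, also called higher, was not shown above background in either group and its difference of 1.56 is not read.

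**Figure D2:**
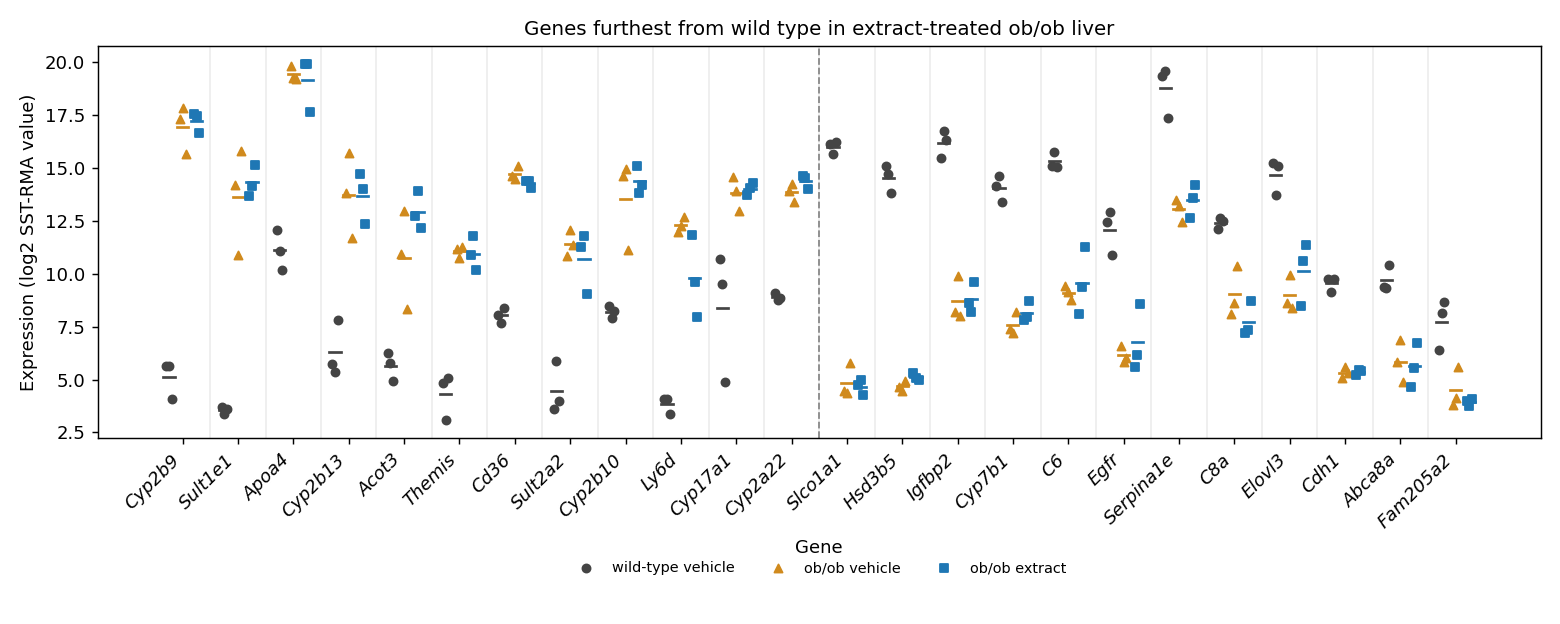
Log2 expression values on every array for the 12 genes called higher (left of the dashed line) and the 12 called lower (right) with the largest differences between extract-treated ob/ob and wild-type liver. Dark circles are wild-type vehicle, orange triangles ob/ob vehicle and blue squares ob/ob extract, 3 arrays each, with short lines at the group means. Slco1a1 lies near 16.01 in wild type and 4.66 with extract. In all 24 genes the extract and wild-type values do not overlap, which was a condition of their choice.

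The 3 neighbouring P450 genes Cyp2b9, Cyp2b13 and Cyp2b10 on chromosome 7 were all called higher, and their upstream sequences are shown because they tell how alike the copies are. RefSeq's GRCm38.p6 table places the 250 bases before the start of Cyp2b9 at chr7:26173159-26173408, of Cyp2b13 at chr7:26061245-26061494 and of Cyp2b10 at chr7:25897408-25897657, all on the plus strand. Capitals mark the 2 positions at which Cyp2b9 and Cyp2b13 differ, T48C and C104T counted from 1 at the first printed base, with the base of Cyp2b9 written first.
Cyp2b9: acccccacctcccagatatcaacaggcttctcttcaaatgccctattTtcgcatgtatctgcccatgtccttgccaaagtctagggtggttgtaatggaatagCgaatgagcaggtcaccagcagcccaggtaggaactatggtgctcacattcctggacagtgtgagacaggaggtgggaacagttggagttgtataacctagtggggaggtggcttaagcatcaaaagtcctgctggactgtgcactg
Cyp2b13: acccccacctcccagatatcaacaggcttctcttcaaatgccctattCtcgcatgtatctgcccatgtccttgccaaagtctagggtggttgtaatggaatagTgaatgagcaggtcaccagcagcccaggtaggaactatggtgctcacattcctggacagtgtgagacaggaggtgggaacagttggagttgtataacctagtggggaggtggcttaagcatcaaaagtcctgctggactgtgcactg
Cyp2b10: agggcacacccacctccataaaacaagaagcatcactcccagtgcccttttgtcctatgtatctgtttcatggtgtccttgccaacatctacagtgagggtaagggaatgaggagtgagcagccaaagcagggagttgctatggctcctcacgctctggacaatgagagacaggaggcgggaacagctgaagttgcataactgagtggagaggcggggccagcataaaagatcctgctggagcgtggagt
Cyp2b9 and Cyp2b13 shared 248 of 250 bases in this window, and Cyp2b10 shared 182 of 240 aligned bases with either. Motifs of the STAT5 type (TTCNNNGAA) and the antioxidant response type (TGACNNNGC), searched on both strands, were in 0 of these 3 windows. Over 19143 promoters of measured genes, the first was in 6.63% and the second in 10.7%. Among genes called higher with a promoter in the table the shares were 3.24% and 10.2% of 216 promoters, and among genes called lower 9.43% and 7.55% of 53. These shares are descriptions of letters in a window and no test was made.

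The wild-type values of each Cyp2b gene lay below all of its extract values. Cyp2b13 was at 5.73, 5.36 and 7.81 in wild type and 14.71, 13.99 and 12.36 with extract (difference 7.39, SE 0.98, adjusted p = 0.00548). Cyp2b10, the P450 most used as a marker of the nuclear receptor CAR, was at 8.46, 7.91 and 8.25 in wild type and 15.11, 13.82 and 14.17 with extract (difference 6.16, SE 0.83, adjusted p = 0.00589). All 3 genes were about as high in ob/ob vehicle mice, with extract minus vehicle differences of 0.27 (95% interval −1.02 to 1.56) for Cyp2b9, −0.04 (−2.20 to 2.12) for Cyp2b13 and 0.82 (−1.01 to 2.65) for Cyp2b10. No transcript or probe sequences were compared, so whether these genes share probe signal was not tested. The level of each single copy is therefore uncertain.

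Drug-metabolising P450 genes as a list had 6 of 24 measured members called higher and 0 lower (median 0.60). Cyp2a22 was at 9.09, 8.78 and 8.85 in wild type and 14.64, 14.52 and 13.99 with extract, a difference of 5.48 (SE 0.29, adjusted p = 7.73e-06) with no overlap and little spread. Cyp2c38 (difference 4.53, adjusted p = 0.00265) and its neighbour Cyp2c39 (difference 4.25, adjusted p = 0.00226) were core genes too. Cyp2a5 was called (difference 2.77, adjusted p = 0.0433) although its extract values of 19.92, 19.92 and 19.91 lay at or next to the ceiling of the scale. Its call was lost without any 1 of the extract arrays (adjusted p = 0.141, 0.190 and 0.143), ob/ob vehicle array 1 (0.0658) or 2 (0.0716), or wild-type array 2 (0.125). The remaining member, Nr1i2, encodes a xenobiotic receptor and is described with the genes called here alone. The P450 gene Cyp17a1, a steroid hydroxylase outside these lists, varied widely in wild type (10.71, 9.51 and 4.90) against 13.72, 14.05 and 14.29 with extract (difference 5.65, adjusted p = 0.0459). Cyp17a1 lost its call without extract array 1 (adjusted p = 0.137), 2 (0.195) or 3 (0.161), ob/ob vehicle array 1 (0.0682) or 2 (0.0769), or wild-type array 2 (0.108).

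Igfbp2, which binds insulin-like growth factors, was the 1 gene called among 17 of the growth hormone and IGF axis (list median −0.18). It was at 15.48, 16.72 and 16.32 in wild type and 8.62, 8.17 and 9.60 with extract, a difference of −7.38 (SE 0.55, adjusted p = 1.47e-04). The core also held 2 receptor genes outside that list, picked out after their values were seen: Lifr, the receptor of leukaemia inhibitory factor (difference −3.24, adjusted p = 0.00256), and Avpr1a, a vasopressin receptor whose extract values were not shown above background (difference −2.88, adjusted p = 0.00581). Onecut1, a hepatocyte transcription factor, was at 11.52, 12.17 and 9.79 in wild type and 7.49, 8.43 and 9.63 with extract and was not called (adjusted p = 0.105).

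Cd36, the fatty acid translocase, was at 8.06, 7.68 and 8.40 in wild type and 14.36, 14.40 and 14.06 with extract. The difference was 6.23 (SE 0.27, adjusted p = 2.39e-06), and ob/ob vehicle mice were at 14.61, 14.46 and 15.09. It was the 1 gene called higher among 16 of fatty acid uptake and binding, and the binding protein Fabp5 was the 1 called lower (list median 0.49). Fabp5 was at 8.02, 7.25 and 6.96 in wild type and 5.62, 5.59 and 5.56 with extract (difference −1.82, adjusted p = 0.0165). Its call was lost without extract array 1 (adjusted p = 0.0720), 2 (0.0965) or 3 (0.0645) or wild-type array 2 (0.0646).

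Of 26 lipid droplet and triglyceride genes, 3 were called higher and 0 lower, with a median of 1.15, and in 15 of the 26 the extract values all exceeded the wild-type values (11.1% of all clusters did). Cidea, a protein that fuses lipid droplets, was at 4.96, 5.02 and 4.33 in wild type, not shown above background, and 9.92, 9.48 and 7.60 with extract (difference 4.23, adjusted p = 0.0111). Mogat1, an acyltransferase of triglyceride synthesis, was at 6.70, 5.21 and 5.55 in wild type and 8.92, 8.95 and 8.0 with extract (difference 2.80, adjusted p = 0.00940). The third was Fitm1 (difference 1.90, adjusted p = 0.0286). These calls rested on single arrays, since 0 of the list were called without extract array 1 or 2, 7 without ob/ob vehicle array 3 and 5 without wild-type array 1. Without extract array 1 and 2 the adjusted p was 0.0545 and 0.0749 for Cidea, 0.0538 and 0.0693 for Mogat1, and 0.0601 and 0.144 for Fitm1. Fitm1 was also lost without extract array 3 (0.116) or wild-type array 2 (0.110) or 3 (0.0922). Cidec, of the same family as Cidea, was at 5.62, 6.37 and 6.50 in wild type and 12.31, 12.32 and 8.21 with extract and just missed the threshold (adjusted p = 0.0505).

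Fatty acid oxidation and ketogenesis had 8 of 30 measured members called higher and 0 lower, with a median difference of 1.19. The carnitine carrier Slc25a20, which passes acylcarnitines into mitochondria, was at 9.56, 8.88 and 8.64 in wild type and 11.05, 11.88 and 11.47 with extract (difference 2.44, SE 0.32, adjusted p = 0.00522). It was the list's core gene. Cyp4a14, which hydroxylates the end of fatty acid chains, was at 13.58, 14.48 and 15.05 in wild type and 17.71, 19.49 and 18.50 with extract (difference 4.20, SE 0.63, adjusted p = 0.0111). Pex11a, a protein of peroxisome division, was at 8.93, 9.39 and 9.01 in wild type and 12.97, 14.32 and 12.11 with extract (difference 4.02, SE 0.66, adjusted p = 0.0168). Vnn1, a pantetheinase, was at 6.49, 5.78 and 6.75 in wild type and 11.06, 11.61 and 9.64 with extract (difference 4.43, SE 0.64, adjusted p = 0.00954). The other 4 were Cyp4a10 (difference 3.46), the medium-chain dehydrogenase Acadm (1.83), the thioesterase Acot2 (2.31) and the reductase Decr1 (1.68). Each of these 4 lost its call without extract array 2 (adjusted p = 0.120, 0.182, 0.208 and 0.228) or wild-type array 2 (0.0708, 0.114, 0.165 and 0.173), among others. The list's count was 4, 1 and 5 without extract array 1, 2 and 3, and 1 and 3 without wild-type array 2 and 3. Cyp4a14 lost its call without extract array 2 (adjusted p = 0.0705) or wild-type array 2 (0.0594), and Vnn1 also without extract array 1 (0.0538, 0.0666 and 0.0605 for extract 1, extract 2 and wild type 2). Pex11a lost it without extract array 1 (0.0716) or 2 (0.0891) or wild-type array 2 (0.0708) or 3 (0.0611).

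The acyl-CoA thioesterase Acot3, which frees fatty acids in peroxisomes, was called higher together with its neighbour Acot4. It was at 6.26, 5.76 and 4.94 in wild type and 12.72, 13.89 and 12.16 with extract, a difference of 7.27 (SE 0.94, adjusted p = 0.00508), and it belonged to the core. In ob/ob vehicle mice it was at 10.94, 12.96 and 8.31, so that extract minus vehicle was 2.19 (95% interval 0.10 to 4.28). Acot4 was at 6.01, 5.86 and 5.29 in wild type, 8.44, 9.35 and 6.45 in ob/ob vehicle and 9.34, 10.84 and 9.12 with extract. Acot4 was called against wild type with extract (difference 4.05, adjusted p = 0.0177) and not with vehicle (difference 2.36, adjusted p = 0.0983). Its extract minus vehicle difference was 1.69 (95% interval 0.20 to 3.18). In that contrast limma called neither Acot3 (adjusted p = 0.767) nor Acot4 (0.765). Acot4 lost its call against wild type without extract array 1 (0.0632) or 2 (0.0999) or wild-type array 2 (0.0764) or 3 (0.0711).

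Of 18 genes of de novo lipogenesis 0 were called by limma in either direction (median 0.82), though 7 were higher and 1 lower at an unadjusted p under 0.05. Without ob/ob vehicle array 3, 2 were called higher and 1 lower, and without wild-type array 1, 3 and 1. By comparison, in ob/ob vehicle against wild type 6 were called higher and 1 lower. Over all clusters 2.96% were called in that comparison and 1.29% with extract. In extract against ob/ob vehicle 0 of the list were called. Elovl6, the elongase of that pathway, was at 12.54, 10.45 and 9.16 in wild type, 17.01, 17.05 and 14.39 in ob/ob vehicle and 14.54, 13.87 and 15.17 with extract (extract minus wild type 3.81, adjusted p = 0.0742). The glycolytic enzyme Pklr and the carbohydrate-responsive factor Mlxipl missed the threshold as well, at adjusted p = 0.152 and 0.0845, with differences of 2.67 and −2.74. For Elovl6 extract minus vehicle was −1.62 (95% interval −3.56 to 0.31), so these data do not show that the extract group differed from ob/ob vehicle. Of 18 elongases and desaturases 1, Elovl3, was called lower and 0 higher (median 0.29); 2 were higher without ob/ob vehicle array 3 and 1 without wild-type array 1. Of 18 genes of cholesterol synthesis and uptake 0 were called by limma (median −0.20), with 1 higher and 3 lower at an unadjusted p under 0.05.

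The apolipoprotein gene Apoa4 had one of the largest differences. It was at 12.08, 11.09 and 10.19 in wild type and 19.92, 19.89 and 17.63 with extract, a difference of 8.03 (SE 0.63, adjusted p = 2.20e-04), and 1 extract array was at the ceiling of the scale. Among 18 apolipoprotein and lipoprotein genes it was the 1 called higher, and Apom was the 1 called lower (list median 0.08). Apom, which carries sphingosine-1-phosphate on HDL, was at 9.78, 9.77 and 8.67 in wild type and 5.64, 6.77 and 7.23 with extract (difference −2.86, adjusted p = 0.0254). It lost its call without extract array 1 (adjusted p = 0.0948) or 2 (0.107) or wild-type array 1 (0.0585) or 2 (0.123).

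Bile acid synthesis and transport genes were called in both directions, 3 higher and 2 lower of 29 (median 0.08). The canalicular phospholipid pump Abcb4 was at 13.18, 12.79 and 13.02 in wild type and 14.85, 14.92 and 14.53 with extract (difference 1.77, SE 0.23, adjusted p = 0.00508). It was a core gene with narrow groups. Abcc4, an export pump of the blood-facing membrane, was at 6.00, 5.43 and 6.02 in wild type and 11.06, 9.28 and 8.37 with extract (difference 3.75, adjusted p = 0.0158). The reductase Akr1d1 completed the 3 (difference 2.66, adjusted p = 0.0271), and Slco1a1 and Cyp7b1 were the 2 called lower. Without extract array 2 or wild-type array 2, Abcb4 was the only one of the 3 left. Abcc4 then had adjusted p = 0.0771 and 0.0847, and Akr1d1 0.147 and 0.0816. Akr1d1 was also lost without extract array 3 (0.108) or wild-type array 3 (0.0699). Abcb4 lies beside Abcb1a and Abcb1b, which were called higher as well (differences 4.04 and 2.47, adjusted p = 0.0490 and 0.0459), though Abcb1a kept its call in 2 of the 9 fits and Abcb1b in 3. Without extract array 1 or 2 and wild-type array 1, 2 or 3 the adjusted p was 0.176, 0.204, 0.0632, 0.122 and 0.158 for Abcb1a and 0.171, 0.217, 0.0517, 0.171 and 0.145 for Abcb1b. Both were lost without ob/ob vehicle array 1 as well (0.0770 and 0.0566), and Abcb1a without extract array 3 (0.0994).

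Genes of NRF2 targets and antioxidant defence had 6 of 27 members called higher and 0 lower (median 0.89), against 12 and 0 in ob/ob vehicle. Calls over all clusters were fewer with extract too, 1.29% against 2.96%. Between extract and ob/ob vehicle 0 of the list were called. Gsta2, a glutathione transferase, was at 11.90, 12.39 and 12.41 in wild type and 17.50, 16.07 and 16.37 with extract (difference 4.41, SE 0.43, adjusted p = 0.00108). The quinone reductase Nqo1 was at 6.22, 6.97 and 5.79 in wild type and 11.51, 10.33 and 9.91 with extract (difference 4.26, SE 0.42, adjusted p = 0.00121). Both were core genes, and their ob/ob vehicle means of 16.15 and 9.82 were well above wild type too. Gstm4 (difference 3.07), Gstm2 (3.48), Gstm3 (4.81) and the metallothionein Mt1 (4.47) were outside the core. Gstm4 lost its call without extract array 1 (adjusted p = 0.0618) or 2 (0.0705) or wild-type array 2 (0.0617), and Gstm2 without extract array 1 (0.0507) or wild-type array 2 (0.0823) or 3 (0.0575). Gstm3 lost it without extract array 1 (0.0797) or 2 (0.140), ob/ob vehicle array 1 (0.0566) or 2 (0.0600), or wild-type array 2 (0.164) or 3 (0.123). Mt1 lost it without extract array 2 (0.0844) or 3 (0.0762) or wild-type array 3 (0.0666). The list's count fell to 3 without extract array 2, wild-type array 2 or wild-type array 3, and was 10 without ob/ob vehicle array 3. The neighbouring glutathione transferases Gstp1 and Gstp2, which are male-biased, were called lower (differences −3.26 and −2.92, adjusted p = 0.0117 and 0.0144). Both were lost without extract array 2 (0.0705 and 0.0715) or wild-type array 2 (0.0682 and 0.0764).

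Acute phase genes, made by liver in inflammation, had 3 of 26 called higher and 0 lower (median 0.18), against 6 and 0 in ob/ob vehicle. The share called over all clusters was likewise lower with extract, 1.29% against 2.96%. Between extract and ob/ob vehicle 0 of these genes were called. Against wild type the list was mixed, with 5 higher and 4 lower at an unadjusted p under 0.05. Extract values all exceeded wild type in 7 of the 26 and all lay under it in 5 (11.1% and 10.6% of all clusters). Orm3 and its neighbour Orm2, which encode orosomucoids, were core genes. Orm3 was at 4.90, 4.93 and 4.58 in wild type, not shown above background, and 10.89, 9.34 and 9.18 with extract (difference 5.0, SE 0.55, adjusted p = 0.00227). Orm2 was at 10.82, 11.04 and 8.98 in wild type and 15.38, 13.91 and 14.07 with extract (difference 4.17, adjusted p = 0.00916). Mt1 was the third. Mt2 varied widely within the extract group, at 12.84 ± 2.95 (SD, n = 3) against 9.01, 7.99 and 7.85 in wild type, and was not called in the limma model (adjusted p = 0.102).

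Of 32 measured complement and coagulation genes, 6 were called lower in treated liver and 0 higher, with a median of −0.62. At an unadjusted p under 0.05, 13 were lower and 0 higher, and in 16 all extract values were under all wild-type values (10.6% of all clusters were). C6, which joins the membrane attack complex, was at 15.10, 15.77 and 15.04 in wild type and 8.10, 9.37 and 11.27 with extract (difference −5.72, SE 0.63, adjusted p = 0.00234). C8a, a subunit of the same complex, was at 12.13, 12.61 and 12.51 in wild type, 8.10, 8.62 and 10.35 in ob/ob vehicle and 7.18, 7.34 and 8.69 with extract (extract minus wild type −4.68, adjusted p = 0.00316). The clotting factor gene F11 was at 11.13, 10.98 and 10.47 in wild type and 7.99, 8.37 and 8.46 with extract (difference −2.59, adjusted p = 0.00608). These 3 were in the core, and the other 3 were not.

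The plasmin inhibitor gene Serpinf2 was at 15.46, 15.84 and 15.59 in wild type, 15.28, 14.74 and 14.09 in ob/ob vehicle and 12.82, 13.82 and 14.00 with extract (extract minus wild type −2.08, adjusted p = 0.0277). It was not called in ob/ob vehicle against wild type (difference −0.93, adjusted p = 0.242). Its call was lost without extract array 1 (0.0952) or 2 (0.0998), ob/ob vehicle array 2 (0.0511) or wild-type array 2 (0.125) or 3 (0.0846). Hc, complement component C5 (difference −1.64, adjusted p = 0.0304), and C2 (difference −2.12, adjusted p = 0.0333) kept their calls in 3 of the 9 fits each. Without extract array 1, 2 or 3, Hc had adjusted p = 0.120, 0.147 and 0.105 and C2 0.131, 0.172 and 0.0694. Without wild-type array 2 or 3 the values were 0.122 and 0.0769 for Hc and 0.147 and 0.0922 for C2, and Hc was also lost without wild-type array 1 (0.0641) and C2 without ob/ob vehicle array 2 (0.0600). The count for the list was 3 without extract array 1, extract array 2 or wild-type array 2.

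**Figure D3:**
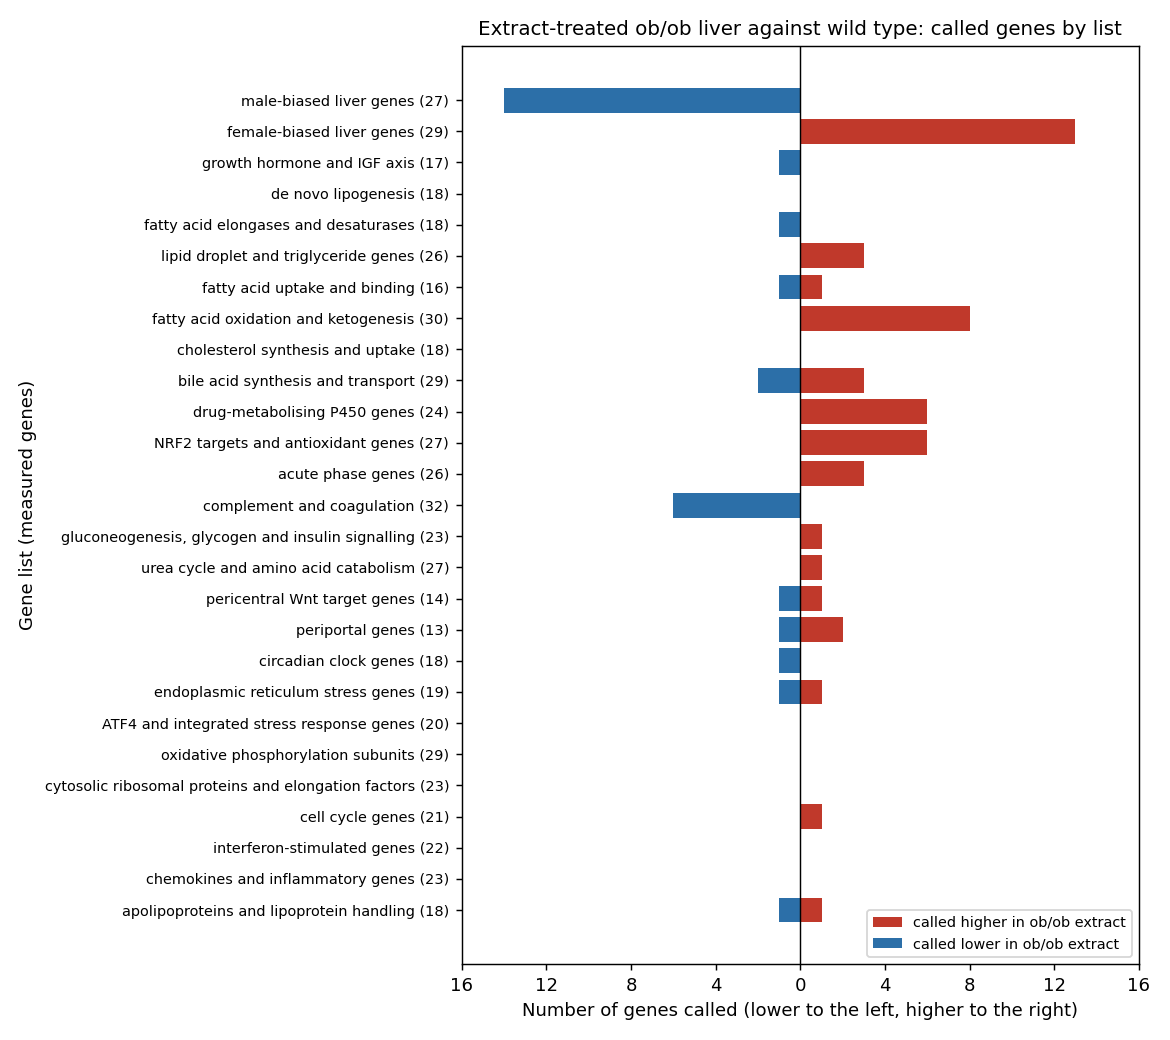
Number of genes called between extract-treated ob/ob and wild-type liver in each of 27 pathway lists, with the number of measured genes in brackets on the vertical axis. Blue bars to the left count genes called lower and red bars to the right genes called higher; the longest are 14 of 27 male-biased genes lower and 13 of 29 female-biased genes higher.

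Other metabolic and stress lists held few calls. Gluconeogenesis, glycogen and insulin signalling had 1 of 23 called higher, Foxo1 (median 0.22), and urea cycle and amino acid catabolism had 1 of 27, the alanine aminotransferase Gpt2 (difference 2.68, adjusted p = 0.0166, median of the list 0.13). Gpt2 lost its call without extract array 1 (0.0791), 2 (0.0998) or 3 (0.0552) or wild-type array 2 (0.0703), while 3 of the list were called without wild-type array 1 and 2 without ob/ob vehicle array 3. Of the pericentral Wnt target genes the retinal dehydrogenase Aldh1a1 was called higher, at 17.63, 17.13 and 17.11 in wild type and 19.47, 19.19 and 19.19 with extract (difference 1.99, SE 0.24, adjusted p = 0.00324). Aldh1a1 was a core gene and the carboxylesterase Ces3a was the 1 called lower of those 14 (difference −2.63, adjusted p = 0.0366, list median −0.18). Ces3a kept its call in 2 of the 9 fits, those without extract array 3 and without ob/ob vehicle array 3; its adjusted p reached 0.190 without extract array 2. Periportal genes had 2 of 13 called higher, Apoa4 and Aldh1b1, and 1 lower, Cdh1 (median 0.03). Aldh1b1 (difference 1.97, adjusted p = 0.0285) lost its call without extract array 1 (0.101), 2 (0.126) or 3 (0.110) or wild-type array 2 (0.131) or 3 (0.0895). Cdh1, E-cadherin of the hepatocyte junction, was at 9.73, 9.15 and 9.74 in wild type and 5.21, 5.44 and 5.41 with extract (difference −4.19, SE 0.26, adjusted p = 2.78e-05). Its extract values were under the upper end of the olfactory range on 2 of 3 arrays.

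Among endoplasmic reticulum stress genes the chaperone Hyou1 was called lower and Dnajb9 higher, of 19 (median −0.35). At an unadjusted p under 0.05, 4 of the 19 were lower and 1 higher. Extract values all lay under wild type in 8 and all exceeded it in 1 (10.6% and 11.1% of all clusters). Hyou1 was at 12.96, 13.07 and 13.68 in wild type and 10.68, 10.17 and 11.33 with extract (difference −2.51, adjusted p = 0.0111), and it lost its call without extract array 1 (0.0583) or 2 (0.0705). Dnajb9 was at 12.03, 12.25 and 12.90 in wild type and 14.82, 14.06 and 15.12 with extract (difference 2.27, adjusted p = 0.0147), and it lost its call without extract array 1 (0.0723) or 3 (0.0597) or wild-type array 2 (0.0760). Cdkn1a, an inhibitor of cell division, was the 1 called among 21 cell cycle genes (difference 3.65, adjusted p = 0.0149, median of the list 0.39). Its wild-type values were not shown above background, and it lost its call without extract array 1 (0.0600) or 2 (0.0801) or wild-type array 2 (0.0703) or 3 (0.0570). No gene was called by limma among 20 ATF4 and integrated stress response genes (median 0.11), 29 oxidative phosphorylation subunits (0.55), 23 cytosolic ribosomal proteins and elongation factors (−0.18), 22 interferon-stimulated genes (−0.30) and 23 chemokine and inflammatory genes (−0.23). At an unadjusted p under 0.05 these lists held 1, 6, 0, 0 and 0 genes higher and 1, 0, 1, 3 and 1 lower, in that order.

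The 59 named core genes also included some that no list had held, which were picked out after their values were seen. Lgals1, galectin-1, was at 8.25, 7.70 and 9.09 in wild type and 14.61, 13.48 and 13.04 with extract (difference 5.36, SE 0.44, adjusted p = 2.86e-04). Chpt1, an enzyme of phosphatidylcholine synthesis, was at 12.13, 11.65 and 11.65 in wild type and 14.18, 15.06 and 14.41 with extract (difference 2.74, adjusted p = 0.00147). Rcan2, a regulator of calcineurin, was higher by 3.65 and the monocarboxylate carrier Slc16a7 by 2.89. Ly6d, a surface protein known from B cell precursors, was at 4.09, 4.10 and 3.38 in wild type, not shown above background, 11.99, 12.25 and 12.68 in ob/ob vehicle and 11.84, 9.60 and 7.94 with extract (extract minus wild type 5.94, adjusted p = 0.00448). For Ly6d extract minus vehicle was −2.51 (95% interval −4.18 to −0.85), a contrast in which 0 clusters were called. On the lower side were Aox3, an aldehyde oxidase (difference −3.22, adjusted p = 0.00256), Kyat1, a kynurenine aminotransferase (−2.99, adjusted p = 0.00273), and the transporter Slc22a28 (−2.69, adjusted p = 0.00265).

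The calls were then set beside those of untreated ob/ob mice, which shared the same wild-type arrays. Of the 287 clusters, 235 were also called in ob/ob vehicle against wild type, and 277 had an unadjusted p under 0.05 there. In the test of the difference itself, extract against ob/ob vehicle, 0 clusters (0%) were called by limma, the smallest adjusted p was 0.593, and 1433 clusters (6.45%) had an unadjusted p under 0.05. So no gene, above or below, is shown to differ between the comparisons in the fit of all 9 arrays. Without ob/ob vehicle array 3, 51 clusters were called in that contrast. With array weights 106 were called, and without both arrays that stood apart 360 were.

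A set of 10 clusters (0.0450%) were called in extract against wild type and had an unadjusted p of 0.05 or more in ob/ob vehicle against wild type, 9 higher and 1 lower. Of these, 8 carried a gene symbol, all higher: Wnt5b, Foxo1, Zkscan3, Ccdc28a, Rad1, Lonrf3, Adgb and Nr1i2. Foxo1, the transcription factor that insulin restrains and that drives glucose production, was at 7.63, 7.49 and 6.76 in wild type, 7.72, 7.95 and 7.52 in ob/ob vehicle and 8.37, 9.02 and 9.07 with extract. Extract minus wild type was 1.53 (SE 0.31, adjusted p = 0.0432) and extract minus vehicle 1.09 (95% interval 0.41 to 1.77). Nr1i2, the pregnane X receptor, was at 8.86, 8.54 and 8.57 in wild type, 9.11, 9.63 and 8.56 in ob/ob vehicle and 10.04, 10.19 and 9.91 with extract. Extract minus wild type was 1.39 (SE 0.29, adjusted p = 0.0495) and extract minus vehicle 0.95 (95% interval 0.31 to 1.59). In both genes every extract value exceeded every value of the other 2 groups. All 8 genes were chosen from these same values. Their distance from wild type follows from the call, and the choice also favours distance from ob/ob vehicle.

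Lonrf3, of a family of RING-finger proteins, was at 5.50, 4.69 and 4.70 in wild type, 5.23, 5.20 and 4.24 in ob/ob vehicle and 6.53, 6.43 and 7.01 with extract. It had the widest gap to ob/ob vehicle of the 8, with extract minus vehicle at 1.77 (95% interval 1.00 to 2.54) and extract minus wild type at 1.69 (adjusted p = 0.0471). Neither control group of Lonrf3 was shown above background. Wnt5b, a secreted Wnt ligand, was at 4.20, 3.93 and 3.43 in wild type, not shown above background, and 5.20, 5.56 and 5.72 with extract (difference 1.64, adjusted p = 0.0408). Adgb, the globin gene androglobin, was also not shown above background in wild type (difference 1.28, adjusted p = 0.0487). The zinc finger gene Zkscan3 (difference 1.17, adjusted p = 0.0433), Ccdc28a (1.21, adjusted p = 0.0448) and the DNA damage checkpoint gene Rad1 (1.06, adjusted p = 0.0459) had the smallest differences of the group.

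These 8 calls were close to the threshold and none was in the core. All 8 lost their calls without extract array 1 (adjusted p = 0.0640 to 0.172), extract array 2 (0.157 to 0.222), wild-type array 2 (0.122 to 0.173) or wild-type array 3 (0.0554 to 0.149). Without extract array 3 (0.104 to 0.184) or ob/ob vehicle array 1 (0.0650 to 0.0803) or 2 (0.0691 to 0.0830) 7 of the 8 did, and without wild-type array 1 (0.0604 to 0.0854) 4 did. With the replicate number as a block all 8 lost their calls as well (adjusted p = 0.0520 for Wnt5b, 0.0570 for Nr1i2, 0.0606 for Foxo1, 0.0620 for Lonrf3, 0.0777 for Rad1, 0.0819 for Adgb, 0.0850 for Zkscan3 and 0.0854 for Ccdc28a). The count of clusters called here alone was 1, 1 and 2 without extract array 1, 2 and 3. It was 5, 4 and 52 without ob/ob vehicle array 1, 2 and 3. Without wild-type array 1, 2 and 3 it was 8, 0 and 2. By the looser definition of being called here and not called in ob/ob vehicle, 52 clusters (0.234%) qualified, 38 higher and 14 lower.

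Nr1d1 was the 1 core cluster not called in ob/ob vehicle against wild type. It encodes REV-ERB alpha, a nuclear receptor that represses clock genes and follows the time of day. Its values were 9.30, 9.15 and 10.51 in wild type, 9.16, 8.44 and 8.55 in ob/ob vehicle and 6.46, 6.65 and 5.74 with extract. Extract minus wild type was −3.37 (SE 0.40, adjusted p = 0.00307) and lay between −3.62 and −2.94 whichever array was left out, while ob/ob vehicle minus wild type was −0.94 (adjusted p = 0.266). Extract minus vehicle was −2.43 (95% interval −3.32 to −1.55), not called with all arrays (adjusted p = 0.593) and called without both arrays that stood apart (difference −2.52, adjusted p = 0.00693). Among 18 clock genes Nr1d1 alone was called (list median 0.16). Cry1 was at 7.02, 6.84 and 6.68 in wild type and 7.46, 7.54 and 8.01 with extract (difference 0.82, adjusted p = 0.180), and Per3 at 8.15, 7.46 and 6.46 against 8.23, 9.04 and 8.45 (difference 1.22, adjusted p = 0.344). Arntl went the other way, at 5.69, 5.63 and 6.61 against 5.02, 5.36 and 5.19 (difference −0.79, adjusted p = 0.282). Its extract values were not shown above background. Extract values all exceeded wild type in 3 of the 18 and all lay under it in 4 (11.1% and 10.6% of all clusters). Nr1d2, the paralogue of Nr1d1, differed by 0.24 and Dbp by 0.41 (adjusted p = 0.731 and 0.834). The hour of tissue collection is not given in the sources used here, and its part was not tested.

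Fmo2, a flavin monooxygenase, was at 8.86, 9.52 and 8.79 in wild type, 10.03, 10.07 and 9.29 in ob/ob vehicle and 10.84, 11.08 and 11.57 with extract. It was called here (difference 2.11, adjusted p = 0.0124) and not in ob/ob vehicle (difference 0.74, adjusted p = 0.275), and it lost its call without extract array 2 (0.0705) or 3 (0.0511).

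**Figure D4:**
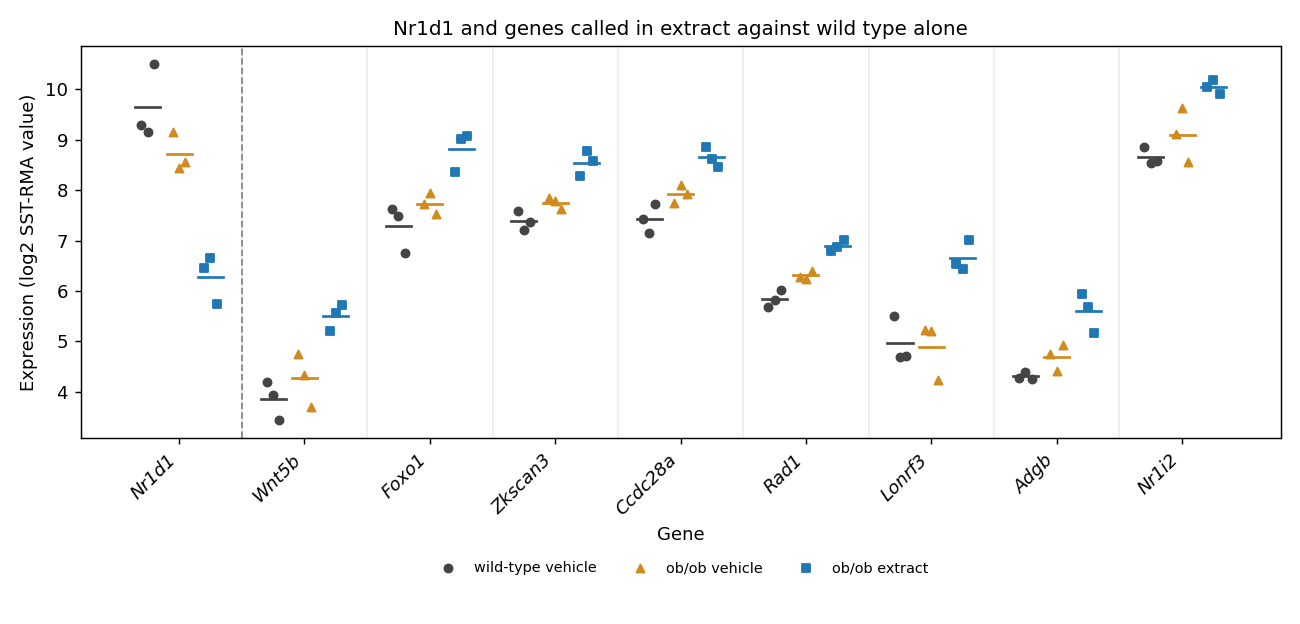
Log2 expression values on every array for Nr1d1 (left of the dashed line) and the 8 named genes called in extract against wild type with an unadjusted p of 0.05 or more in ob/ob vehicle against wild type. Dark circles are wild-type vehicle, orange triangles ob/ob vehicle and blue squares ob/ob extract, 3 arrays each, with lines at group means; Nr1d1 is between 5.74 and 6.65 with extract and at or above 8.44 elsewhere, and in the other 8 genes the extract values exceed the wild-type values.

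In the opposite direction, 658 clusters were called in ob/ob vehicle against wild type and 423 of these were not called in extract against wild type, 81 of them with an unadjusted p of 0.05 or more. The sialyltransferase St6gal1 was at 7.04, 6.77 and 6.55 in wild type, 9.35, 8.77 and 8.52 in ob/ob vehicle and 7.42, 6.89 and 6.81 with extract. It differed from wild type by 2.09 in ob/ob vehicle (adjusted p = 0.00581) and by 0.25 with extract (adjusted p = 0.739), and extract values overlapped wild type. Extract minus vehicle for St6gal1 was −1.84 (95% interval −2.49 to −1.19). The ceramidase Acer2, the surface protein Cd180, the integrin Itga6 and the transglutaminase Tgm2 were likewise higher in ob/ob vehicle. For these genes extract minus wild type lay between 0.31 and 0.71 and extract minus vehicle between −1.60 and −1.08.

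The 5 genes named by the same rule on the lower side were Luc7l2, Rbm5, Pnn, Rbm39 and Paxbp1. In both directions the rule took genes called in ob/ob vehicle with an unadjusted p of 0.05 or more with extract. Their nearness to wild type with extract thus follows from the choice. The choice also favours a gap between extract and ob/ob vehicle in all 10 genes. Luc7l2, of a U1 snRNP-associated family, was at 11.65, 12.69 and 12.60 in wild type, 10.20, 10.92 and 10.16 in ob/ob vehicle and 12.44, 12.17 and 11.62 with extract. Extract minus wild type was −0.24 (adjusted p = 0.808) and extract minus vehicle 1.65 (95% interval 0.85 to 2.45). For the other 4, extract minus wild type lay between −0.78 and −0.50. None of these 10 genes was called in extract against ob/ob vehicle, and a p above the threshold does not show that they matched wild type.

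**Figure D5:**
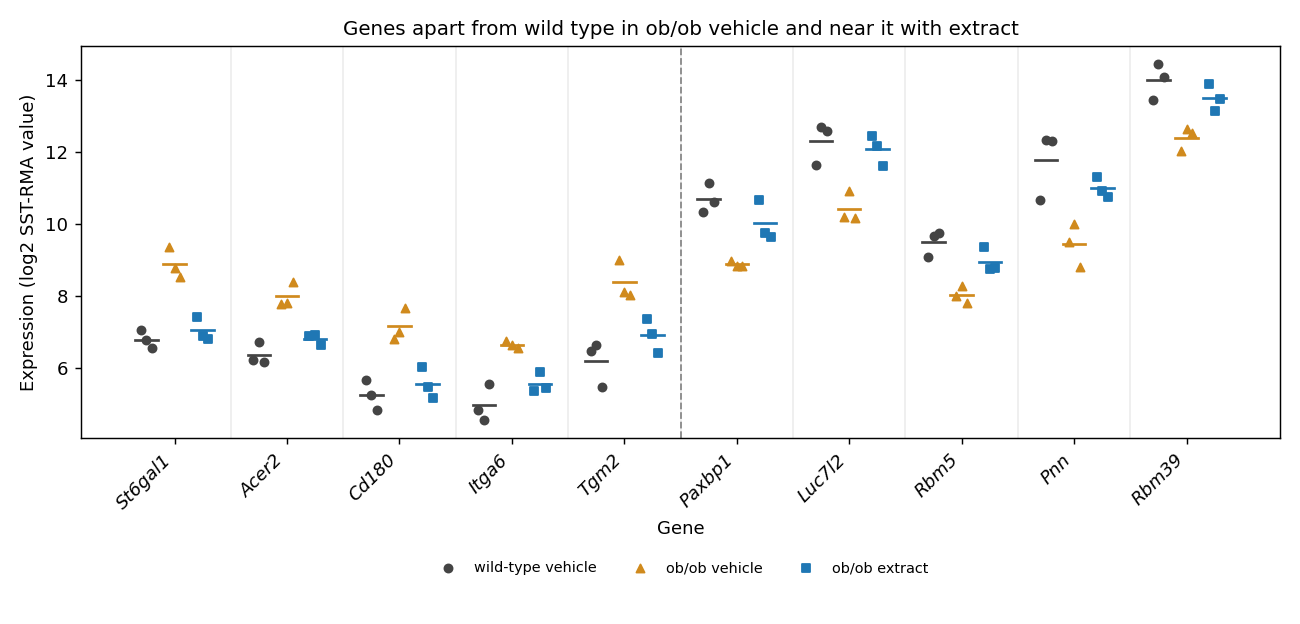
Log2 expression values on every array for 10 genes called in ob/ob vehicle against wild type whose unadjusted p in extract against wild type was 0.05 or more, 5 higher in ob/ob vehicle (left of the dashed line) and 5 lower (right). Dark circles are wild-type vehicle, orange triangles ob/ob vehicle and blue squares ob/ob extract, 3 arrays each, with lines at group means; St6gal1 means are 6.79, 8.88 and 7.04 in that order.

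Few markers of the other cells of liver were called. In whole tissue, fewer cells of a type and less RNA per cell cannot be told apart. No marker was called by limma among 17 of Kupffer cells and macrophages (median −0.38), 16 of sinusoidal endothelium (−0.00), 19 of stellate cells and fibrosis (−0.01), 10 of B cells (−0.17), 13 of neutrophils and monocytes (0.02), 7 of cholangiocytes (−0.00), 11 of pancreatic acinar cells (−0.19) and 4 of erythroid cells (0.19). At an unadjusted p under 0.05 the macrophage, endothelial, stellate, B cell and acinar lists held 0, 0, 3, 0 and 2 markers higher and 2, 2, 3, 1 and 0 lower, and the other 3 lists held 0. Of 10 markers of lipid-associated macrophages, Cd63 was called higher (difference 1.56, adjusted p = 0.0111) and Fabp5 lower (median 0.28). Cd63 was not shown above background in wild type and lost its call without extract array 1 (0.0528) or 2 (0.0783) or wild-type array 2 (0.0628). Of 10 adipocyte markers 1 was called, Pparg, the fat-cell nuclear receptor (median 0.26). Pparg was at 6.37, 7.09 and 6.11 in wild type and 9.52, 9.90 and 9.23 with extract (difference 3.03, adjusted p = 0.0254), and it lost its call without extract array 1 (0.0960), 2 (0.147) or 3 (0.0645) or wild-type array 1 (0.0548), 2 (0.0644) or 3 (0.0923). The adipocyte droplet protein Plin1 was not shown above background in either group.

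Themis, a gene known for T cell selection, was the 1 called among 16 T and NK cell markers (list median 0.01). It was at 4.84, 3.07 and 5.09 in wild type, not shown above background, and 10.89, 11.77 and 10.18 with extract (difference 6.61, SE 0.53, adjusted p = 2.86e-04). Of the 16 markers, 15 were not shown above background in wild type and 13 were not with extract. The list's mean level was 4.11 to 4.24 log2 in wild type and 4.60 to 4.68 with extract. That mean includes Themis with its difference of 6.61, while the median difference over the list was 0.01. Cd8a, at 4.83, 4.98 and 5.18 with extract, and Cd8b1, at 3.80, 3.74 and 3.77, stayed under the upper end of the olfactory range on every array.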

How the data were processed

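Liver RNA of 9 mice, 3 per group, was read on Clariom S arrays. Per the labels' design text and the submitters' processing notes, the authors made the deposited log2 values with signal space transformation RMA in Transcriptome Analysis Console 4.0.2. The array's genome build is not given in the sources used here. Groups came from the labels' treatment field. One limma model (limma 3.58.1, R 4.3.3) with a mean per group was fitted to all 9 arrays and 22206 clusters, with 6 residual and 4.45 prior degrees of freedom and Benjamini-Hochberg adjustment over all clusters, called at 0.05. Tests are two-sided, and an exact permutation test of 3 against 3 cannot go below 0.10. A gene counts as called here alone when it is called and its unadjusted p in ob/ob vehicle against wild type is at least 0.05. Array number limits the precision.

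Named genes are the 12 called with the largest differences per direction, up to 10 per direction called here alone, 5 per direction called in ob/ob vehicle with an unadjusted p of 0.05 or more here, the 4 members of each list with the smallest p, and Lep. Other genes were named after their values were seen. The comparison, the 40 lists (27 pathway, 13 cell type) and the tests were chosen with earlier results of these data known. Of 804 listed genes 721 were measured. Symbols came from the platform annotation, and all 19572 named clusters matched RefSeq's GRCm38.p6 table by Entrez number. Alternatives covered scaling, filters, weights, the variance prior, a replicate block and left-out arrays. The model was also tested on simulated data for this comparison over 22206 clusters. It recovered 13.4% of 67 changes of 1 log2, 82.1% of 67 changes of 2 and 97% of 66 changes of 4. It called 7 of 22006 unchanged clusters. These rates describe the simulated data only. The real arrays had uneven weights, 0.279 for ob/ob vehicle array 3 against 2.47 for ob/ob vehicle array 2. How far the rates hold for the real arrays was not tested.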

Additional observations from a re-analysis of the deposited data

How the results depend on the processing

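The direction of all 287 calls held in all 19 alternatives, and 68 clusters were called in each of them. Since the extract and wild-type values of all 287 did not overlap, leaving out, weighting or filtering could not reverse a direction. The replicate block, balanced over the groups, left every difference as it was. Only rescaling and the covariate could have reversed a direction. The 287 calls became 796 with array weights, 595 without both arrays that stood apart, 3115 by the design text's criterion and 77 to 598 when 1 array was left out. The 217 clusters called higher became 570, 397 and 49 to 457 under weights, without both arrays and with 1 array left out. The 70 called lower became 226, 198 and 28 to 141, and 147 when the interquartile range of each array entered as a covariate. The 10 called here alone became 62 with weights, 6 with a trended robust prior, 21 with only the 2 groups compared fitted, 6 after quantile normalization, 57 without both arrays, 52 without a limit on the unadjusted p and 0 to 52 with 1 array left out. In extract against ob/ob vehicle 0 became 106 with weights, 1 with the covariate, 360 without both arrays and 0 to 51 with 1 array left out. The cause of these shifts was not tested.

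Same-numbered arrays of the extract and wild-type groups did not deviate together (correlations −0.208, −0.041 and −0.143), nor did those of the extract and ob/ob vehicle groups (−0.13, 0.016 and −0.106). Those of ob/ob vehicle and wild type did (0.256, 0.262 and 0.45), though arrays 1 and 2 correlated about as much across numbers (0.218 and 0.26). Whether the numbers pair the mice of that comparison, which enters the set called here alone, is not settled. With a replicate block 283 clusters were called, 235 of them among the 287, 3 were called here alone, none of them among the 8 named genes, and 0 in extract against ob/ob vehicle. Where a group lies in the range of olfactory receptors or at the ceiling of the scale, the size of a difference is not settled.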
